A study of Mus musculus with 30 samples.

Results

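The proteasome genes of mouse CD4+ and CD11c+ cells were described across 10 groups of microarrays. Members were all genes whose only annotated symbol begins with Psma to Psmg followed by a digit, each read from the probe set whose mean over the 30 arrays was highest. The rule found 47 of 17097 genes. Of these, 45 encode proteasome subunits, regulators or assembly factors, and Psmc3ip and Psme3ip1 match the pattern without being subunits. The 5 genes Psmb8, Psmb9, Psmb10, Psme1 and Psme2 were set against 32 constitutive members, which are the alpha ring, the beta ring, and the 19S genes named Psmc or Psmd, including the assembly chaperones Psmd5 and Psmd9. Psmc6, Psmd10 and Psme4 were not analysed here.

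The mice were DO11.10 RAG2-/- on a BALB/c background and 8 to 10 weeks old. Their T cells carry a transgenic receptor for an ovalbumin (OVA) peptide and their lymphocytes cannot rearrange receptors of their own. Each cell type was profiled with 3 arrays in unimmunised mice, mice primed subcutaneously with OVA (100 micrograms, in complete Freund's adjuvant), primed mice also given control IgG at 10 mg/kg, primed mice given abatacept at 10 mg/kg, and mice made orally tolerant with OVA in their drinking water. Abatacept is a fusion of CTLA-4's extracellular region with an Ig constant region, and it blocks the CD28 ligands CD80 and CD86. Cells were collected on day 10 and enriched magnetically, to a purity above 90% per the labels. The sources of CD4+ cells were the axillary lymph nodes for the 3 primed groups, the mesenteric ones for the tolerised group, and spleen pooled with lymph nodes for the unimmunised group, so site and treatment cannot be told apart between some CD4+ groups. For CD11c+ cells spleen and lymph nodes were pooled in every group. The labels do not say that the arrays of a group are separate mice, so the spread behind each p-value may be technical.

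The proteasome degrades ubiquitin-tagged proteins inside a barrel of alpha and beta rings, the 20S core, which the 19S particle caps, unfolds substrates for and feeds. In lymphocytes, in antigen-presenting cells and in cells exposed to interferon-gamma, the catalytic subunits encoded by Psmb5, Psmb6 and Psmb7 are replaced in new particles by those of Psmb8, Psmb9 and Psmb10, which makes the immunoproteasome and alters the peptides available to MHC class I. Psme1 and Psme2 encode PA28 alpha and beta, an interferon-inducible cap of the same core.

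Because the immunosubunit and PA28 genes rose in CD4+ cells against unimmunised mice, the promoter stretch just before the start of 3 of them and of Psmb5 is shown. In other comparisons below they did not all move together. The 30 bases after the start of Psme1 are added because they hold a match. Sequences are from RefSeq on build GRCm38.p6, 5′ to 3′ on the gene's strand, and capitals mark a match to a searched motif. Psmb8 is on chr17:34198095-34198194 (plus strand), Psmb9 on chr17:34187331-34187430 (minus), Psmb10 on chr8:105938393-105938492 (minus), Psmb5 on chr14:54617996-54618095 (minus) and Psme1 on chr14:55578494-55578523 (plus), inside its first exon.
Psmb8: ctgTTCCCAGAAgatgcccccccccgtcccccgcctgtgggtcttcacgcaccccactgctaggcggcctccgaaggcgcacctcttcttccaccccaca
Psmb9: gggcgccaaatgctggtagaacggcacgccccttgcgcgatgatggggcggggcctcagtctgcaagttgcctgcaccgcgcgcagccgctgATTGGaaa
Psmb10: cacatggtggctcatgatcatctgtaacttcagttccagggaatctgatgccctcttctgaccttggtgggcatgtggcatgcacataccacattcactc
Psmb5: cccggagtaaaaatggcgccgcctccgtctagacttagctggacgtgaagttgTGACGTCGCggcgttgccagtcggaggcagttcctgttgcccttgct
Psme1: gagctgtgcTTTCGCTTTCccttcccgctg

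The Psmb8 stretch holds the core of a gamma-activated site (GAS), an element of interferon-responsive genes, and the Psme1 stretch holds an ISRE core, the letters bound by interferon regulatory factors, on the opposite strand. The Psmb5 stretch holds the core of an antioxidant response element (ARE), the kind of site bound by Nfe2l1 and Nfe2l2. The Psmb9 stretch holds a CCAAT box on the opposite strand, and the Psmb10 stretch holds no match. The search covered both strands of windows from 250 bases before to 50 bases after the start, which the RefSeq table gave for 39 of the 47 members. Among the 5 immunosubunit and PA28 genes, the ISRE core (GAAA, any 2 bases, GAAA) was found in 1, the GAS core TTCNNNGAA in 1, the ARE core TGACNNNGC in 0 and the CCAAT box in 1. Among 26 constitutive members with a window, the counts were 3 for ISRE, 1 for GAS, 4 for ARE (Psmb5, Psmb6, Psmd9 and Psmd12) and 10 for CCAAT. Over all 27025 genes with a window, 3.99% held the ISRE core, 9.55% the GAS core, 13.99% the ARE core and 41.06% the CCAAT box. Matches overlapping another motif were counted for each. A match describes letters in this window and is not shown to be a bound site.

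Levels below are log2 values from robust multi-array averaging (RMA), and a gene was called changed at a Benjamini-Hochberg adjusted p under 0.05 in limma over all genes tested. Of the 47 members, 45 lay above the array median on at least 3 arrays of each cell type and were tested. Arrays of a group correlated at 0.983 to 0.995 over all probe sets. The labelled cell types were checked against their defining genes: Cd3e, a chain of the T cell receptor complex, read 10.69 to 11.65 on CD4+ arrays and 6.82 to 8.78 on CD11c+ arrays, and Itgax, which encodes CD11c, read 9.56 to 10.29 on CD11c+ arrays. On CD4+ arrays Itgax read 3.30 to 4.24 in the 3 primed groups, 4.45 to 6.13 in tolerised mice and 7.01 to 7.04 in unimmunised mice. The unimmunised CD4+ arrays stood apart: 9 of 10 listed neutrophil markers were measured and averaged 9.71 to 9.97 there against 3.50 to 3.89 on primed arrays, 5 of 8 erythroid markers averaged 8.74 to 9.18 against 3.79 to 4.43, and all 7 red pulp macrophage markers averaged 8.63 to 8.91 against 3.33 to 3.49. The 5 of 6 natural killer cell markers measured averaged 6.90 to 6.99 there, 5.32 to 5.52 on primed arrays and 6.23 to 6.78 on tolerised arrays. The 9 T cell markers measured averaged 8.52 to 8.61 there and 9.85 to 10.02 on primed arrays. The part of these other cells in the CD4+ differences from unimmunised mice was not tested, and in such bulk samples fewer cells of a type and less RNA per cell cannot be told apart. The Y-linked gene Eif2s3y was also high, at 8.49 to 8.96, on CD4+ primed and tolerised arrays and low, at 2.41 to 2.75, on the other CD4+ arrays. With its level as a covariate limma called 0 members in the CD4+ comparisons of primed or tolerised with unimmunised mice, but it hardly varied within CD4+ groups, so covariate and group cannot be told apart there.

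In CD4+ cells the immunoproteasome genes were lowest in unimmunised mice and higher after either priming or oral tolerisation. Psmb8, the immunoproteasome's chymotrypsin-like subunit, read 9.89, 10.01 and 10.04 on the 3 unimmunised arrays, 10.82, 10.85 and 10.88 on primed arrays and 10.76, 10.80 and 10.88 on tolerised arrays. Neither treated group overlapped the unimmunised one. It rose by 0.87 ± 0.07 (log2, SE) after priming, or 1.82-fold (adjusted p = 1.8e-07), and by 0.83 ± 0.07 after tolerisation (adjusted p = 2.8e-07). Psmb9, a second catalytic immunosubunit that lies beside Psmb8 on chromosome 17 in the MHC region, read 10.52, 10.60 and 10.66 in unimmunised mice, 11.43, 11.50 and 11.58 in primed mice and 11.55, 11.58 and 11.61 in tolerised mice. This was the largest rise of any member in both comparisons, at 1.88-fold and 1.98-fold (0.91 ± 0.08 and 0.99 ± 0.08 log2, adjusted p = 5.6e-07 and 2.5e-07). Psmb10, the third catalytic immunosubunit, rose less. Its unimmunised arrays read 8.17, 8.25 and 8.32, its primed arrays 8.58, 8.62 and 8.74 and its tolerised arrays 8.49, 8.54 and 8.54. The differences were 0.40 ± 0.09 (adjusted p = 0.0019) and 0.27 ± 0.09 (adjusted p = 0.018), and the second was no longer called without unimmunised replicate 1 (adjusted p = 0.07).

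Both PA28 genes moved in the same direction. Psme2 read 8.81, 8.82 and 8.84 in unimmunised mice, 9.42, 9.44 and 9.49 in primed mice and 9.24, 9.42 and 9.51 in tolerised mice. Psme1 read 10.38, 10.41 and 10.52 in unimmunised mice, 10.81, 10.82 and 10.83 in primed mice and 10.93, 11.03 and 11.10 in tolerised mice. Their arrays did not overlap those of unimmunised mice in either comparison, and nor did those of the 3 immunosubunits, beside 29.1% of all genes wholly higher after priming and 23.9% after tolerisation. Psme2 rose 1.54-fold after priming and 1.48-fold after tolerisation (adjusted p = 1.6e-05 and 3.8e-05), and Psme1 rose 1.30-fold and 1.50-fold (adjusted p = 0.00038 and 9.7e-06). Psme2 belongs to a set of near-identical copies in the mouse genome, so its probe set may read more than 1 of them. All 5 genes were thus called higher in each comparison, beside 23.3% of all genes called higher after priming and 20.3% after tolerisation. The comparisons share the 3 unimmunised arrays. The CD4+ control IgG arrays, on which Eif2s3y was as low as in unimmunised mice, read 10.71 to 10.78 for Psmb8, 11.55 to 11.67 for Psmb9, 8.70 to 8.90 for Psmb10, 10.80 to 10.90 for Psme1 and 9.46 to 9.48 for Psme2, above all unimmunised arrays for each gene. Control IgG was not tested against unimmunised mice, and the share of all genes separated in this way was not counted. Those groups also differ in site and in the markers of other cells.

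**Figure D1:**
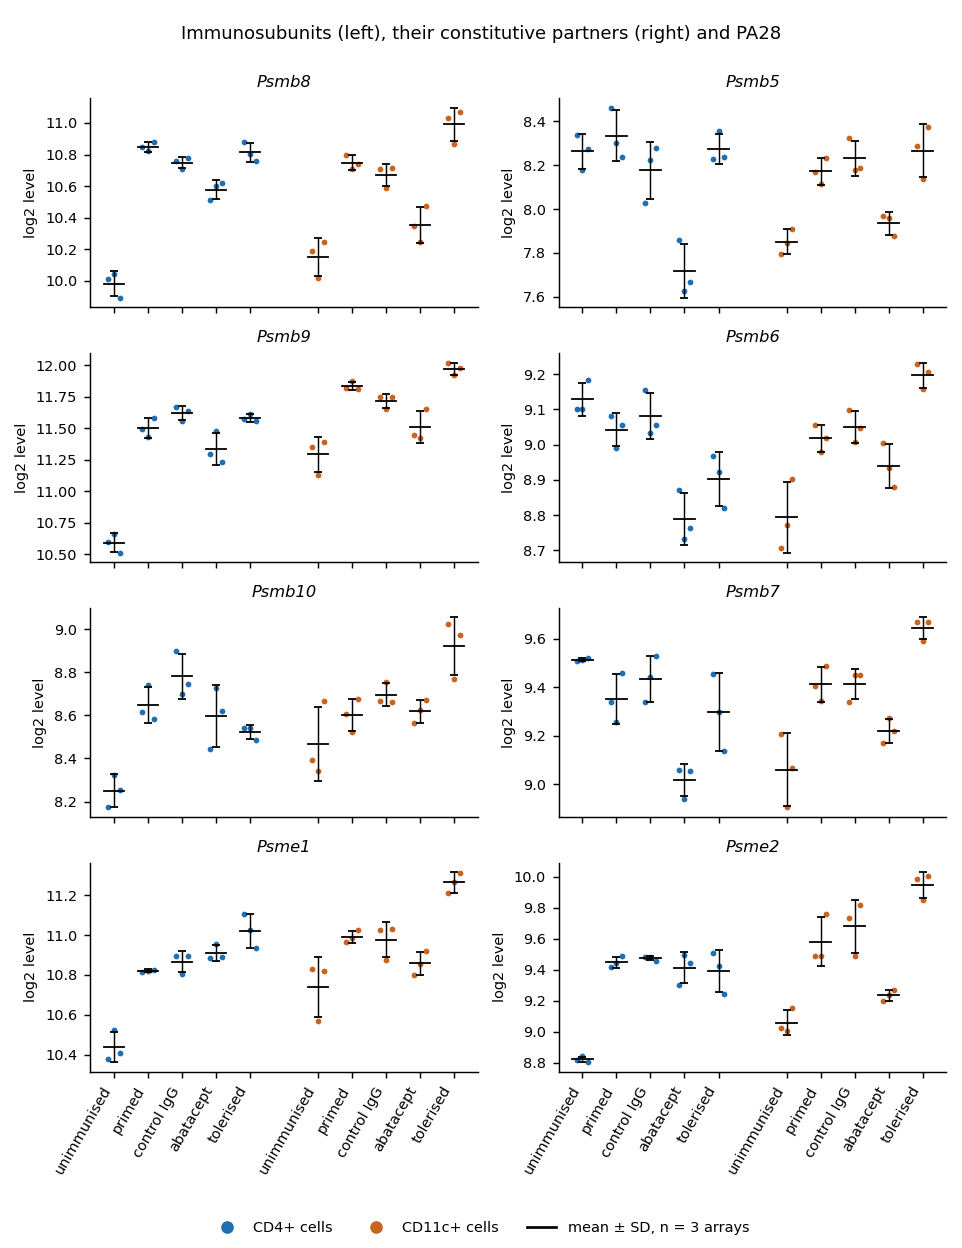
Log2 levels of 8 members on each of the 30 arrays, by group (x axis), with CD4+ cells in blue and CD11c+ cells in orange; bars are mean ± SD of 3 arrays, and panels have their own vertical scales. Psmb8, Psmb9, Psmb10, Psme1 and Psme2 are lowest in unimmunised CD4+ cells and highest in tolerised CD11c+ cells, while Psmb5, Psmb6 and Psmb7 have their lowest mean in abatacept-treated CD4+ cells.

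The constitutive genes of CD4+ cells did not follow. Of the 32, 2 rose and 6 fell after priming, and 2 rose and 9 fell after tolerisation, beside 24.2% and 29.3% of all genes called lower. Their median differences were -0.08 and -0.14, against 0.02 and -0.03 for all genes tested. Psmb5, the constitutive chymotrypsin-like subunit, read 8.18, 8.27 and 8.34 in unimmunised mice, 8.24, 8.30 and 8.46 in primed mice and 8.23, 8.24 and 8.35 in tolerised mice, with overlapping arrays. Its differences were 0.07 (95% CI -0.13 to 0.27) and 0.01 (-0.19 to 0.21), neither called. Psmb6, the caspase-like subunit, was called lower only after tolerisation, where it read 8.82, 8.92 and 8.97 against 9.10, 9.10 and 9.18 (-0.23 ± 0.07, adjusted p = 0.016). That call was lost without unimmunised replicate 3 (adjusted p = 0.06) or tolerised replicate 3 (adjusted p = 0.066). Psmb7, the trypsin-like subunit, read 9.51, 9.51 and 9.52 in unimmunised mice, 9.26, 9.34 and 9.46 in primed mice and 9.14, 9.30 and 9.46 in tolerised mice. Both groups lay below the unimmunised arrays, but neither difference was called (-0.16, adjusted p = 0.16, and -0.22, adjusted p = 0.059).

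Within the alpha ring, which gates entry to the core, Psma2 and Psma4 rose in both comparisons (Psma4 by 0.29 ± 0.09 and 0.33 ± 0.09) and Psma1 and Psma5 fell in both (Psma5 by -0.43 ± 0.07 and -0.28 ± 0.07). Psma7 was lower after priming only, at -0.18 ± 0.07. Of the 4 structural beta subunits limma called 0 in either comparison. At an unadjusted p under 0.05 there was 1 after priming, Psmb1 (0.20), and 0 after tolerisation. In the 19S cap Psmd7, the partner of the deubiquitinase subunit, read 8.39 to 8.68 on unimmunised arrays against 7.82 to 8.04 on primed arrays and 7.82 to 8.01 on tolerised arrays, and fell by -0.65 ± 0.11 and -0.63 ± 0.11. Its other probe sets lay at or below 4.91 in every group, and the mean of all its probe sets gave -0.21 after priming. Psmd1, a scaffold of the cap's base, fell by -0.40 ± 0.10 and -0.49 ± 0.10.

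Assembly factors were among the members that fell most in CD4+ cells. Psmd5, a chaperone of the 19S base, read 9.02, 9.16 and 9.22 in unimmunised mice, 8.47, 8.61 and 8.68 in primed mice and 8.43, 8.59 and 8.63 in tolerised mice, a fall of -0.54 ± 0.10 and -0.58 ± 0.10 (adjusted p = 0.00071 and 0.0004). Of the 4 chaperones that build the 20S rings, Psmg2, Psmg3 and Psmg4 fell after priming and Psmg2 and Psmg3 after tolerisation, Psmg3 by -0.51 ± 0.10 and -0.58 ± 0.10. The largest fall of any gene matched by the rule was that of Psmc3ip, a cofactor of meiotic recombination and not a subunit, at -1.11 ± 0.17 and -1.45 ± 0.17. Over all 45 tested members, 7 rose and 10 fell after priming and 7 rose and 12 fell after tolerisation, beside 47.4% and 49.5% of all genes called in either direction.

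The divergence was summarised as the mean of the 5 immunosubunit and PA28 genes minus the mean of the 32 constitutive genes, centred on the median of this difference over the 30 arrays. In CD4+ cells this difference was -0.91, -0.85 and -0.65 on unimmunised arrays, -0.10, -0.08 and -0.04 on primed arrays, and -0.03, -0.01 and 0.01 on tolerised arrays. The unimmunised arrays lay below those of all other CD4+ groups, and the shift was 0.73 after priming and 0.79 after tolerisation. In CD11c+ cells the same measure was -0.14, -0.12 and -0.06 on unimmunised arrays, 0.08, 0.09 and 0.17 on primed arrays and 0.21, 0.23 and 0.25 on tolerised arrays. These groups did not overlap either, but the shifts were smaller, at 0.22 and 0.335. The measure is a description and was not tested. With only Psmb5, Psmb6 and Psmb7 as the constitutive side the CD11c+ shifts fell to 0.11 and 0.21.

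By exchange pair, Psmb9 minus Psmb6 shifted by 0.99 and 1.21 in CD4+ cells after priming and tolerisation, Psmb8 minus Psmb5 by 0.80 and 0.82, and Psmb10 minus Psmb7 by 0.56 and 0.49, with no overlap of arrays. In CD11c+ cells Psmb9 minus Psmb6 shifted by 0.32 and 0.28 and Psmb8 minus Psmb5 by 0.28 and 0.42, again without overlap. The third pair behaved differently there. Psmb10 minus Psmb7 shifted by -0.22 and -0.13 in CD11c+ cells, and the arrays overlapped.

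In CD11c+ cells, proteasome genes of both kinds were higher after priming and more of them after tolerisation. Psmb8 read 10.02, 10.19 and 10.25 in unimmunised mice, 10.71, 10.74 and 10.80 in primed mice and 10.87, 11.03 and 11.07 in tolerised mice. It rose 1.51-fold after priming (0.60 ± 0.09, adjusted p = 0.00019) and 1.79-fold after tolerisation (0.84 ± 0.09, adjusted p = 8.5e-06). Psmb9 read 11.13, 11.35 and 11.39 in unimmunised mice, 11.81, 11.82 and 11.87 in primed mice and 11.92, 11.98 and 12.02 in tolerised mice, a rise of 1.46-fold and 1.60-fold (adjusted p = 0.00031 and 3e-05). The 3 groups of arrays were fully separate for both genes. Of all genes 33.1% were wholly higher after priming and 33.3% after tolerisation, both against unimmunised mice, and 11.8% in tolerised against primed mice. The share of all genes with the 3 groups separate was not counted. Psmb10 was not called after priming, where its arrays (8.52, 8.61 and 8.67) overlapped the unimmunised ones (8.34, 8.39 and 8.67; difference 0.13, 95% CI -0.07 to 0.34). After tolerisation it read 8.77, 8.97 and 9.02 and was 0.45 ± 0.09 higher (adjusted p = 0.0014).

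Psme2 had the largest rise of the 5 in tolerised CD11c+ cells. It read 9.003, 9.022 and 9.15 in unimmunised mice, 9.49, 9.49 and 9.76 in primed mice and 9.85, 9.98 and 10.00 in tolerised mice, 1.43-fold and 1.85-fold higher (adjusted p = 0.0012 and 1.5e-05). Psme1 read 10.57, 10.82 and 10.83, then 10.96, 10.98 and 11.02, then 11.21, 11.27 and 11.31, and rose by 0.25 ± 0.08 (adjusted p = 0.027) and 0.52 ± 0.08 (adjusted p = 0.00018). The primed call of Psme1 was lost without unimmunised replicate 2 or any 1 of the 3 primed arrays, with adjusted p between 0.051 and 0.12.

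The constitutive catalytic genes rose as well. Psmb7 read 8.90, 9.07 and 9.21 in unimmunised mice, 9.34, 9.40 and 9.49 in primed mice and 9.59, 9.67 and 9.67 in tolerised mice, rising by 0.35 ± 0.08 and 0.58 ± 0.08 (adjusted p = 0.0042 and 7.1e-05). Psmb5 read 7.80, 7.85 and 7.91, then 8.11, 8.17 and 8.23, then 8.13, 8.29 and 8.37, and Psmb6 read 8.71, 8.77 and 8.90, then 8.98, 9.02 and 9.05, then 9.16, 9.21 and 9.23. For these 3 genes every primed and tolerised array lay above the unimmunised ones, beside 33.1% of all genes wholly higher after priming and 33.3% after tolerisation. Psmb5 rose by 0.32 ± 0.08 and 0.41 ± 0.08 and Psmb6 by 0.22 ± 0.07 and 0.40 ± 0.07, and the primed call of Psmb6 was lost on leaving out 1 of 4 arrays (adjusted p up to 0.079).

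All 4 structural beta subunits rose in both CD11c+ comparisons, Psmb1 by 0.39 ± 0.08 and 0.66 ± 0.08. Of all genes 25.5% were called higher after priming and 31.9% after tolerisation. Of the 7 alpha subunits tested, 2 rose after priming (Psma1 and Psma7) and 6 after tolerisation, Psma4 by 0.47 ± 0.08, with Psma3 not called. The largest rise of any member was that of Psmd8, a subunit of the 19S lid, which read 7.04, 7.19 and 7.26 in unimmunised mice, 7.76, 7.86 and 8.00 in primed mice and 7.95, 8.07 and 8.25 in tolerised mice. It rose 1.64-fold and 1.90-fold (adjusted p = 9.4e-05 and 7.1e-06). Psmd13 and Psmd14, the latter the deubiquitinase of the lid, rose in both comparisons too, by 0.42 ± 0.10 and 0.64 ± 0.10 and by 0.36 ± 0.09 and 0.45 ± 0.09. Of the 5 ATPases that unfold substrates, only Psmc3 was called after priming and Psmc3, Psmc4 and Psmc5 after tolerisation. After priming the shares of alpha subunits and of ATPases called were close to or below that of all genes.

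Few members fell. Psmd3, a lid subunit, read 5.95 to 6.14 in unimmunised and 5.71 to 5.78 in primed CD11c+ cells (-0.29 ± 0.09, adjusted p = 0.017), a call lost without unimmunised replicate 1 (adjusted p = 0.067) or primed replicate 3 (adjusted p = 0.058). Psme3, the nuclear PA28 gamma activator that does not belong to the interferon-inducible pair, was lower after tolerisation, at 10.55 to 10.68 against 10.74 to 11.13 (-0.29 ± 0.10, adjusted p = 0.028), but not without unimmunised replicate 2 (adjusted p = 0.13), tolerised replicate 2 (adjusted p = 0.075) or tolerised replicate 3 (adjusted p = 0.072). In total 18 members rose and 1 fell after priming and 31 rose and 1 fell after tolerisation, of 45 tested. The background was 25.5% of genes called higher and 13.2% lower after priming, and 31.9% higher and 16.7% lower after tolerisation. The members' medians were 0.21 and 0.32, against 0.09 and 0.10 for all genes tested. Among the constitutive genes 13 and 24 of 32 rose. Without unimmunised replicate 2, 12 members were called after priming in place of 19.

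Other cells of the CD11c+ fraction moved with these groups. The 7 red pulp macrophage markers averaged 11.01 to 11.12 on unimmunised arrays, 9.94 to 10.18 on primed arrays and 9.02 to 9.84 on tolerised arrays. The 7 of 8 conventional dendritic cell markers measured averaged 7.73 to 7.94, 8.74 to 8.86 and 8.38 to 8.59, and 9 of 10 neutrophil markers 6.04 to 7.05, 8.49 to 8.67 and 8.33 to 9.72. Of 23 cell cycle genes, 17 rose after priming and 21 after tolerisation, beside 25.5% and 31.9% of all genes. Eif2s3y read 8.53 to 8.64 on primed CD11c+ arrays, 2.46 to 2.69 on unimmunised ones and 2.40 to 2.84 on tolerised ones, and with it as a covariate 0 members were called after priming and 32 after tolerisation. Its primed and unimmunised levels did not overlap, so covariate and group cannot be fully told apart after priming. The salivary genes Amy1 and Bpifa2 set single arrays apart: their mean ran from 2.58 to 12.18 on unimmunised CD11c+ arrays, 2.60 to 2.76 on primed, 5.52 to 11.47 on control IgG, 2.80 to 7.80 on abatacept and 2.54 to 8.07 on tolerised arrays. With that mean as a covariate 12 members were called after priming and 30 after tolerisation, and the primed calls of Psme1 and Psmb6 were lost (adjusted p = 0.09 and 0.07). The part of these markers in the rise of the members was not tested.

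**Figure D2:**
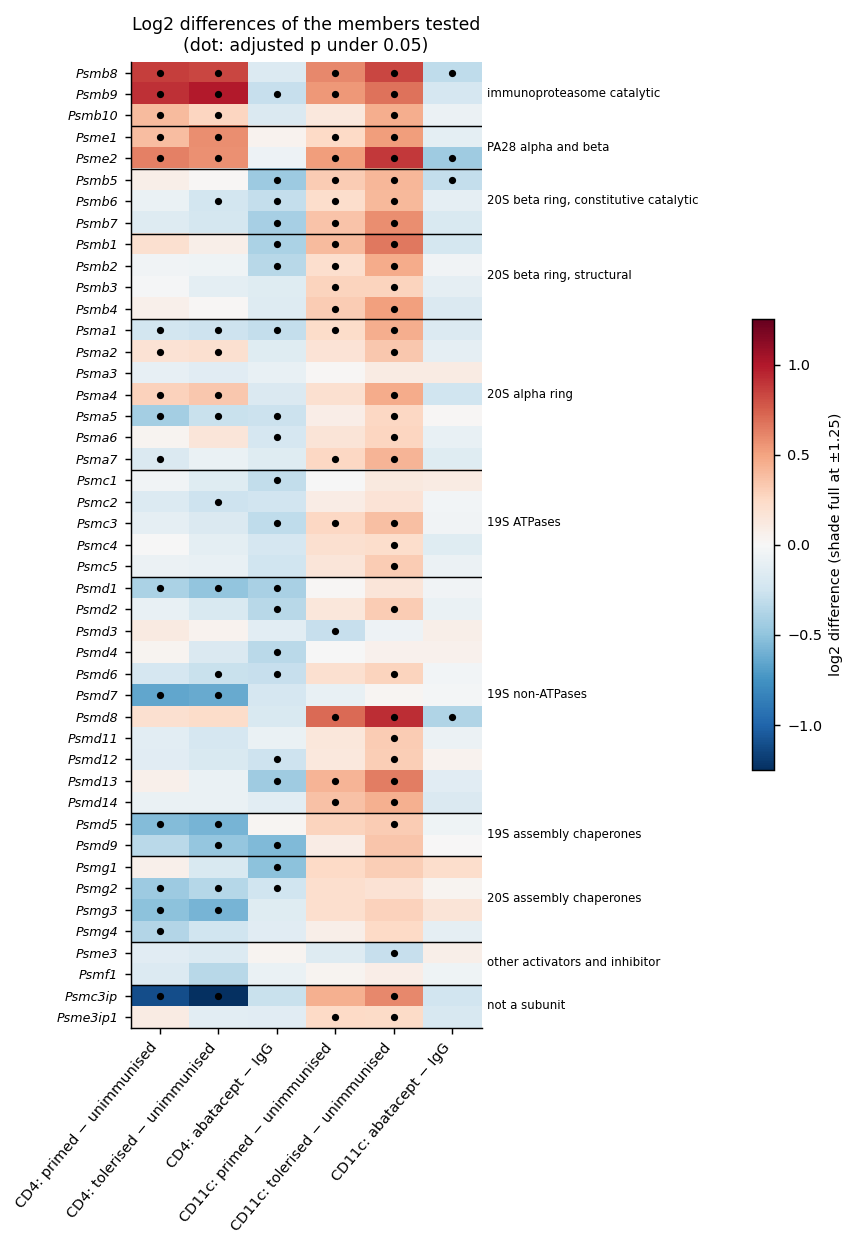
Log2 differences (colour) of the 45 tested members (rows, grouped by role) in 6 comparisons (columns), with a dot where the adjusted p was under 0.05. The immunosubunits and PA28 are red in the columns against unimmunised mice of both cell types, the constitutive genes are red mainly in CD11c+ cells, and the abatacept column of CD4+ cells is blue over most rows.

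An interaction term, fitted over all 30 arrays, tested whether a change differed between the cell types. After priming, Psmb9 and Psmb8 rose less in CD11c+ than in CD4+ cells, by -0.37 ± 0.11 (adjusted p = 0.01) and -0.27 ± 0.10 (adjusted p = 0.039), and the other 3 immunosubunit and PA28 genes were not called. The Psmb8 call was lost without CD4+ unimmunised replicate 3, CD4+ primed replicate 1 or 3, CD11c+ unimmunised replicate 1 or 3, or CD11c+ primed replicate 2 or 3 (adjusted p from 0.06 to 0.11). Of the 32 constitutive genes 17 had a more positive change in CD11c+ cells and 1, Psmd3, a more negative one. Psmb7 differed by 0.51 ± 0.12 (adjusted p = 0.001) and Psma5 by 0.51 ± 0.08 (adjusted p = 1.6e-05). Among chaperones, Psmd5 differed by 0.82 ± 0.16, Psmg3 by 0.73 ± 0.16 and Psmg2 by 0.67 ± 0.14. Over all members 20 were higher and 3 lower, beside 27.3% and 14.6% of all genes.

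After tolerisation 33 members had a more positive change in CD11c+ cells and 1 a more negative one, beside 32.8% and 16.2% of all genes. The 1 was Psmb9 (-0.31 ± 0.11, adjusted p = 0.024), lost without replicate 3 of either unimmunised group, CD11c+ unimmunised replicate 1 or CD11c+ tolerised replicate 2 (adjusted p from 0.052 to 0.066). Psme2 was more positive in CD11c+ cells, at 0.32 ± 0.12 (adjusted p = 0.035), lost without any CD4+ unimmunised array, CD4+ tolerised replicate 3, CD11c+ unimmunised replicate 1 or 2, or CD11c+ tolerised replicate 1 or 3 (adjusted p from 0.05 to 0.11). Psmb8 had nearly the same change in both cell types (0.01, 95% CI -0.20 to 0.22). The constitutive counterparts all differed, Psmb7 by 0.80 ± 0.12, Psmb6 by 0.63 ± 0.09 and Psmb5 by 0.40 ± 0.12. In all, 27 of 32 constitutive genes did so, with a median of 0.52 against 0.12 for all genes. With Eif2s3y as a covariate 0 members were called in this comparison.

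Oral tolerance and priming were also set against each other. In CD4+ cells 1 member was called, Psme3ip1, an interactor of PA28 gamma, at -0.24 ± 0.07 (adjusted p = 0.048), beside 14.7% of all genes. The count was 0 without primed replicate 1, 2 or 3 or tolerised replicate 1, and 2 without tolerised replicate 2. Psme3ip1 itself was also lost without tolerised replicate 3 (adjusted p = 0.11). Psme1 was 0.20 higher in tolerised CD4+ cells without overlap of arrays (95% CI 0.05 to 0.35, adjusted p = 0.067), beside 11.5% of all genes wholly higher. Psmb10 went the other way, lower on every tolerised array but not called (-0.125, adjusted p = 0.38 by limma). The share of all genes wholly lower was not counted. Psmb8, Psmb9 and Psme2 overlapped, with differences of -0.04, 0.08 and -0.06. In the same comparison the neutrophil markers averaged 4.198 to 5.376 on tolerised and 3.50 to 3.89 on primed CD4+ arrays, the red pulp macrophage markers 3.84 to 5.12 and 3.33 to 3.49, and the natural killer cell markers 6.23 to 6.78 and 5.32 to 5.52. Of 23 cell cycle genes 16 fell and 0 rose. Their part in the members' differences was not tested.

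In CD11c+ cells 0 members were called between tolerised and primed mice by limma, beside 2.84% of all genes. At the looser threshold of an unadjusted p under 0.05 there were 17 members, and the share of all genes at that threshold was not counted. The arrays of the 2 groups nonetheless separated for many members. The tolerised arrays lay wholly above the primed arrays for 22 of 45 members and wholly below for 0, beside 11.8% of all genes wholly above and 11.2% wholly below. The 22 included all 5 immunosubunit and PA28 genes and 17 of the 32 constitutive genes, among them all 7 alpha subunits. Their differences were 0.37 for Psme2, 0.32 for Psmb10, 0.27 for Psme1, 0.24 for Psmb8 and 0.14 for Psmb9. The counts of members called were 1 without primed replicate 3 and 2 without tolerised replicate 2.

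The tolerised-primed difference was more positive in CD11c+ than in CD4+ cells for 4 members, beside 6.27% of all genes, and more negative for 0, beside 4.94%. These were Psmb10 (0.44 ± 0.12, adjusted p = 0.021), Psme2 (0.42 ± 0.12, adjusted p = 0.025), Psmb1 (0.39 ± 0.11, adjusted p = 0.019) and Psmb6 (0.32 ± 0.09, adjusted p = 0.022). The count fell to 2 without CD4+ primed replicate 1 or CD4+ tolerised replicate 3, to 0 without CD11c+ primed replicate 2 and to 1 without CD11c+ tolerised replicate 1 or 3, and rose to 8 without CD11c+ tolerised replicate 2. With Eif2s3y as a covariate it was 0.

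Control IgG against primed gave 0 called members in both cell types by limma, beside 0.0872% of all genes in CD4+ cells and 0.0196% in CD11c+ cells. At an unadjusted p under 0.05 it gave 1 member in CD4+ cells and 0 in CD11c+ cells. The immunosubunit and PA28 differences ran from -0.10 to 0.13 in CD4+ cells and from -0.12 to 0.10 in CD11c+ cells.

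Abatacept-treated primed mice were set against those given control IgG. In CD4+ cells abatacept was followed by lower levels of the constitutive proteasome, with little movement of PA28. Of 45 members 20 fell and 0 rose, beside 13.4% of all genes called lower and 3.33% higher, and 17 of the 20 were among the 32 constitutive genes. The members' median was -0.21 and that of the constitutive genes -0.25, against -0.07 for all genes. The arrays did not overlap, with abatacept lower, for 33 members, beside 26.5% of all genes.

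All 3 constitutive catalytic subunits fell in CD4+ cells. Psmb5 read 8.03, 8.22 and 8.28 with control IgG and 7.63, 7.67 and 7.86 with abatacept, 1.37-fold lower (-0.46 ± 0.09, adjusted p = 0.0048). Psmb7 read 9.34, 9.44 and 9.53 against 8.94, 9.05 and 9.06, 1.34-fold lower (adjusted p = 0.0063). Psmb6 read 9.03, 9.06 and 9.16 against 8.73, 8.76 and 8.87, 1.23-fold lower (adjusted p = 0.012). No array of 1 group reached the other for these genes, and their abatacept means were the lowest of all 10 groups. The Psmb6 call was lost without control IgG replicate 1 (adjusted p = 0.052) or abatacept replicate 2 (adjusted p = 0.053).

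The other falls in CD4+ cells spread over the particle. Psmb1 and Psmb2 of the beta ring fell by -0.39 ± 0.08 and -0.34 ± 0.08, and Psma1, Psma5 and Psma6 of the alpha ring by between -0.30 and -0.21. In the 19S cap Psmd13 fell by -0.45 ± 0.10, Psmd1 by -0.41 ± 0.10 and the ubiquitin receptor Psmd4 by -0.34 ± 0.09. There 6 of 11 non-ATPase subunits and 2 of 5 ATPases were called lower, beside 13.4% of all genes. The largest falls were those of assembly chaperones, Psmd9 at -0.55 ± 0.14 and Psmg1 at -0.51 ± 0.11. Psmg1 read 7.94, 7.99 and 8.00 with control IgG and 7.39, 7.41 and 7.61 with abatacept. Psmd9 read 6.58, 6.63 and 6.64 against 5.84, 6.12 and 6.23, and its other probe sets, at or below 4.90 in every group, had higher means with abatacept.

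Of the immunosubunits and PA28, only Psmb9 was called in CD4+ cells under abatacept. It read 11.55, 11.64 and 11.67 with control IgG and 11.23, 11.29 and 11.48 with abatacept (-0.29 ± 0.08, adjusted p = 0.024), and the call was lost on leaving out control IgG replicate 1 or 3 or abatacept replicate 1 or 3. Psmb8 read 10.71, 10.76 and 10.78 against 10.51, 10.60 and 10.62, separate but not called (-0.17, 95% CI -0.31 to -0.03, adjusted p = 0.099). Psmb10 (-0.18), Psme2 (-0.06) and Psme1 (0.04, 95% CI -0.10 to 0.19) overlapped. The immunosubunit minus constitutive measure read -0.07, 0.03 and 0.05 with control IgG and -0.02, 0.18 and 0.24 with abatacept, and these overlapped.

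The cell cycle list moved with this comparison: 23 of 23 genes fell, with a median of -1.76, and its mean was 7.67 to 8.05 on control IgG arrays and 6.005 to 6.311 on abatacept arrays. Its part in the fall of the members was not tested. Markers of other cells stayed at low levels in both groups, with red pulp macrophage means of 3.46 to 3.64 and 3.23 to 3.52 and neutrophil means of 3.722 to 4.003 and 3.758 to 3.966, and Eif2s3y was low in both. The count of 20 called members was 20 without abatacept replicate 1 but 7 without abatacept replicate 3, 10 without abatacept replicate 2, and 11, 12 and 11 without control IgG replicates 1, 2 and 3, and it was 13 when only these 6 arrays were fitted.

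**Figure D3:**
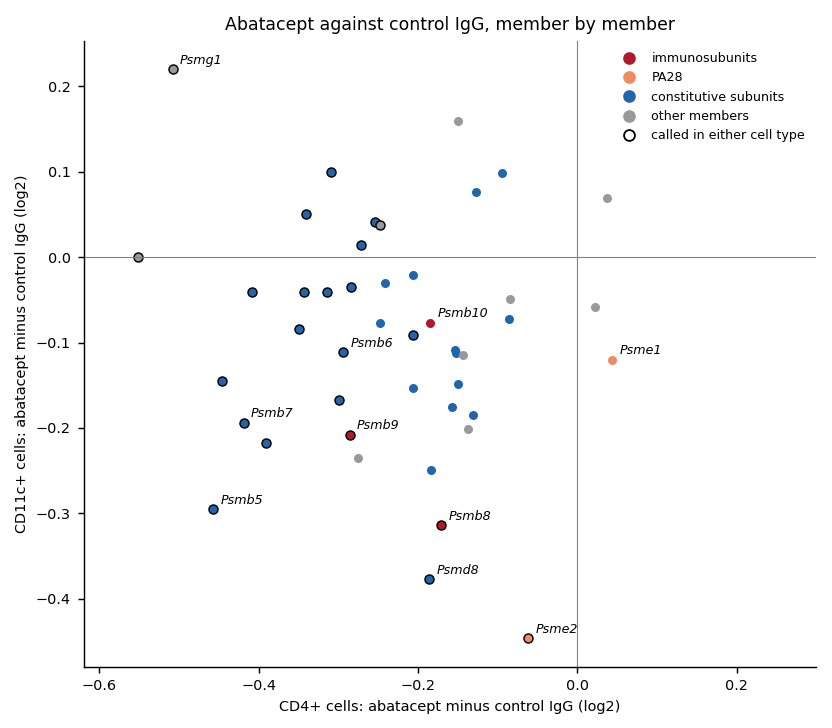
Log2 difference between abatacept and control IgG for each of the 45 tested members in CD4+ cells (x axis) and in CD11c+ cells (y axis), coloured by kind; black outlines mark members called in either cell type. Most constitutive genes lie left of zero, and Psmb5 is low on both axes. Psme2 is lower in CD11c+ cells with a small difference in CD4+ cells, and Psmb8 lies below zero on both axes, called in CD11c+ cells only.

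In CD11c+ cells 4 members fell under abatacept and 0 rose, beside 8.86% of all genes called lower and 6.43% higher, so their share was close to the background. Psme2 read 9.49, 9.73 and 9.82 with control IgG and 9.20, 9.23 and 9.27 with abatacept, 1.36-fold lower (-0.45 ± 0.10, adjusted p = 0.011). Psmb8 read 10.59, 10.71 and 10.71 against 10.25, 10.35 and 10.47, 1.24-fold lower (adjusted p = 0.027). Psmd8 read 7.78, 7.87 and 7.87 against 7.41, 7.45 and 7.52 (-0.38 ± 0.09, adjusted p = 0.016), and Psmb5 8.18, 8.19 and 8.32 against 7.88, 7.96 and 7.97 (-0.29 ± 0.08, adjusted p = 0.022). The groups were separate for all 4, beside 21.2% of all genes with every abatacept array lower. Psmb9, Psmb7 and Psmb6 were also lower on every abatacept array but were not called (-0.21, -0.19 and -0.11, adjusted p = 0.12, 0.13 and 0.31), and Psmb10 (-0.08) and Psme1 (-0.12) overlapped.

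These 4 calls rested on few arrays. The count was 0 without control IgG replicate 3, 1 without control IgG replicate 1 or abatacept replicate 2, and 2 without abatacept replicate 1. In the same comparison the 7 red pulp macrophage markers averaged 10.06 to 10.64 with control IgG and 10.90 to 11.06 with abatacept, 7 conventional dendritic cell markers 8.38 to 8.62 and 8.02 to 8.15, and 4 of 6 plasmacytoid dendritic cell markers 7.66 to 7.76 and 6.88 to 7.02. Eif2s3y read 5.92 to 8.76 with control IgG and 2.37 to 2.72 with abatacept. These levels did not overlap, so covariate and treatment cannot be fully told apart. With Eif2s3y as a covariate 0 of the 4 calls remained. With the salivary mean as a covariate 2 did, Psme2 and Psmd8, and those of Psmb8 and Psmb5 were lost (adjusted p = 0.064 and 0.055). The part of these markers in the members' falls was not tested.

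The abatacept difference itself was set between cell types. It was more negative in CD11c+ cells for Psme2 alone (-0.38 ± 0.12, adjusted p = 0.037) and more positive there for 5 members, beside 4.97% and 9.29% of all genes. The Psme2 call was lost on leaving out any of 9 of the 12 arrays, all but CD4+ abatacept replicate 1, CD11c+ control IgG replicate 2 and CD11c+ abatacept replicate 3 (adjusted p up to 0.12). The 5 were Psmg1 (0.73 ± 0.20, adjusted p = 0.016), Psmc1 (0.41 ± 0.10, adjusted p = 0.0088), Psmd4 (0.39 ± 0.11, adjusted p = 0.023), Psmb2 (0.30 ± 0.10, adjusted p = 0.035) and Psma5 (0.29 ± 0.08, adjusted p = 0.018). The interaction was not called for Psmb5 (0.16, 95% CI -0.08 to 0.40), Psmb7 (0.23, -0.02 to 0.47) or Psmb8 (-0.14, -0.36 to 0.07). The count of 6 became 3 without CD4+ control IgG replicate 1 or 2, CD4+ abatacept replicate 2 or CD11c+ control IgG replicate 3, and 0 with Eif2s3y as a covariate.

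The cell types were compared within each condition. In unimmunised mice all 5 immunosubunit and PA28 genes were higher in CD11c+ than in CD4+ cells, Psmb9 most, at 1.62-fold (0.70 ± 0.08, adjusted p = 3.5e-08), then Psme1 (0.30 ± 0.07), Psme2 (0.24 ± 0.09), Psmb10 (0.22 ± 0.09) and Psmb8 (0.17 ± 0.07, adjusted p = 0.045, with overlapping arrays). The Psmb8 call was lost without replicate 1 or 3 of either cell type (adjusted p up to 0.19), that of Psmb10 without CD4+ replicate 1 or 3 or CD11c+ replicate 3 (up to 0.25), and that of Psme2 without CD11c+ replicate 3 (0.085). Of the 32 constitutive genes 27 were lower and 1, Psma3, was higher. Over all members 6 were higher and 32 lower, beside 27.8% and 38.6% of all genes. The other cells on the unimmunised CD4+ arrays, described above, bear on this comparison too and their part was not tested.

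The other conditions were compared separately, so their counts do not test a change between conditions, which the interactions above do. In primed mice 4 members were higher and 15 lower in CD11c+ cells, beside 29.1% and 34.1% of all genes. With control IgG 6 were higher and 6 lower, beside 30.6% and 35.1%, and 7 in all were called without CD4+ control IgG replicate 1. With abatacept 16 were higher and 6 lower, beside 35.6% and 33% of all genes. In tolerised mice 18 were higher and 3 lower, beside 31.9% and 28.2%, and the 21 became 13 without tolerised replicate 3 of either cell type and 11 when only those 6 arrays were fitted. All 5 immunosubunit and PA28 genes were higher in CD11c+ cells of tolerised mice, Psme2 by 0.55 ± 0.09 (adjusted p = 6.1e-06) and Psmb10 by 0.40 ± 0.09. With abatacept Psmb8 was lower in CD11c+ cells (-0.22 ± 0.07, adjusted p = 0.0095), whereas Psmb5, Psmb6 and Psmb7 were higher, by 0.21 ± 0.08, 0.15 ± 0.06 and 0.20 ± 0.08. The Psmb8 call was lost without CD11c+ replicate 2 (adjusted p = 0.069), and those of Psmb5 and Psmb6 without CD4+ replicate 2 or 3 or CD11c+ replicate 1 or 2 (up to 0.11 and 0.15). That of Psmb7 was lost without replicate 2 of either cell type or CD11c+ replicate 3 (up to 0.12).

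A few members kept 1 direction between cell types, in each direction a smaller share of the 45 tested than of all genes. Psmg1 and Psmg2, which pair as a chaperone of alpha ring assembly, were the 2 members called lower in CD11c+ cells in all 5 conditions, beside 15% of all genes. Psmg1 read 7.39 to 8.17 over the 15 CD4+ arrays and 6.33 to 7.24 over the 15 CD11c+ arrays, with no overlap, as for 9.15% of all genes, and its difference ran from -1.40 ± 0.14 in unimmunised mice to -0.56 ± 0.14 with abatacept. Psmg2 read 7.09 to 7.83 and 6.31 to 6.90, also without overlap, with differences from -1.20 ± 0.10 to -0.41 ± 0.10. Psma3 was higher in CD11c+ cells in all 5 conditions, by 0.16 ± 0.06 to 0.42 ± 0.06, beside 16.3% of all genes. Psma5 was higher in the 4 conditions other than unimmunised, at most with abatacept, where CD4+ arrays read 9.71, 9.73 and 9.77 and CD11c+ arrays 10.37, 10.38 and 10.40 (0.65 ± 0.06, adjusted p = 3.5e-10).

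**Figure D4:**
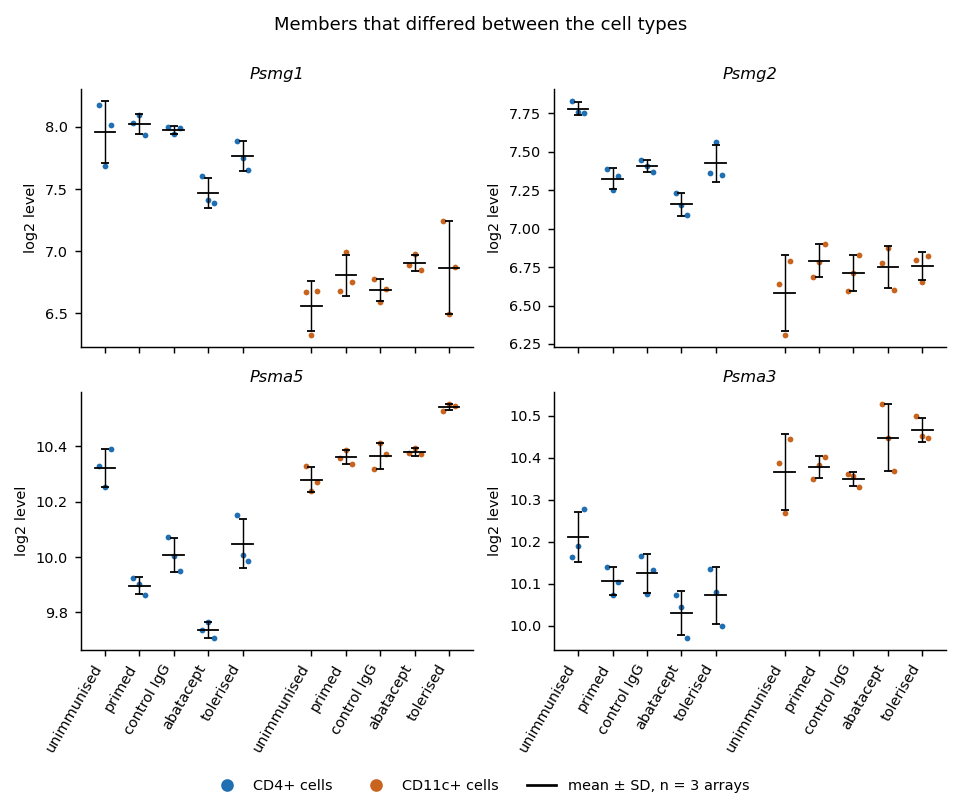
Log2 levels of Psmg1, Psmg2, Psma5 and Psma3 on each of the 30 arrays, by group, with CD4+ cells in blue and CD11c+ cells in orange; bars are mean ± SD of 3 arrays and each panel has its own vertical scale. Psmg1 and Psmg2 are lower on every CD11c+ array than on any CD4+ array, and Psma5 is higher in CD11c+ cells outside the unimmunised groups.

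Ordered by group mean, each of the 5 immunosubunit and PA28 genes was lowest in unimmunised CD4+ cells, next lowest in unimmunised CD11c+ cells and highest in tolerised CD11c+ cells. The range was widest for Psmb9, from 10.59 ± 0.08 (SD, n = 3) to 11.97 ± 0.05, and narrowest for Psmb10, from 8.25 ± 0.08 to 8.92 ± 0.13. For Psmb9 the arrays of tolerised CD11c+ cells (11.92 to 12.02) lay above those of primed CD11c+ cells (11.81 to 11.87), the neighbouring group. For Psmb8 the next group down was primed CD4+ cells, whose highest array (10.88) exceeded the lowest tolerised CD11c+ array (10.87). Psmb5, Psmb6 and Psmb7 had another order, with abatacept-treated CD4+ cells lowest and unimmunised CD11c+ cells next. The arrays of those 2 groups overlapped for each of the 3 genes.

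Of the members that failed the filter, Psmb11, the catalytic subunit of the thymic cortex, read 2.58 to 3.33 on all 30 arrays, and Psma8, the alpha subunit of testis, read 2.78 to 5.05, with its highest values in unimmunised CD11c+ cells (4.43 to 5.05). The array medians ran from 4.4555 to 4.544, so no level of Psmb11 was shown above background.

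Proteasome partners outside the symbol rule were taken from a list of 23 genes, of which 13 were measured and tested. In CD4+ cells 1 rose and 4 fell after priming, beside 23.3% and 24.2% of all genes, and 0 rose and 6 fell after tolerisation, beside 20.3% and 29.3%. Nfe2l2, a factor that acts through antioxidant response elements, fell by -0.76 ± 0.09 and -1.26 ± 0.09, and Usp14 and Uchl5, deubiquitinases of the 19S cap, by -0.79 ± 0.15 and -0.34 ± 0.07 after priming. Ubqln2, a shuttle of tagged proteins, rose by 0.27 ± 0.07 after priming. With abatacept in CD4+ cells 0 rose and 3 fell, beside 3.33% and 13.4%, among them Pomp, the maturation factor of the 20S core, by -0.32 ± 0.08 (adjusted p = 0.014). In CD11c+ cells after tolerisation 3 rose and 1 fell, shares below the 31.9% and 16.7% of all genes, with Uchl5 at 0.58 ± 0.07 and Pomp at 0.28 ± 0.06.

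The MHC class I presentation genes, whose products receive the peptides the immunoproteasome makes, numbered 10 of 14 measured. In CD4+ cells 8 rose and 1 fell both after priming and after tolerisation, with medians of 0.51 and 0.58, beside 23.3% of all genes higher and 24.2% lower after priming and 20.3% and 29.3% after tolerisation. Nlrc5, the transactivator of class I genes and of Psmb9, rose by 1.57 ± 0.11 and 1.82 ± 0.11, and Tapbp, which loads peptide, by 0.47 ± 0.07 and 0.59 ± 0.07. H2-K1 rose by 0.56 ± 0.06 and 0.67 ± 0.06, though probe sets of class I heavy chains may read several near-identical genes. The gene that fell after priming was Canx, a chaperone of folding (-0.32). In CD11c+ cells 1 rose and 1 fell after priming (Nlrc5 0.63 ± 0.18, Canx -0.31 ± 0.08), no larger a share than the 25.5% and 13.2% of all genes. After tolerisation 6 rose and 1 fell (Nlrc5 1.21 ± 0.18), beside 31.9% and 16.7%. With abatacept 0 rose and 2 fell in CD4+ cells, Canx and Calr, beside 3.33% and 13.4% of all genes, and in CD11c+ cells limma called 0, with 3 at an unadjusted p under 0.05. Tap1, Tap2 and B2m were not analysed here.

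Of 22 interferon-gamma pathway genes, 17 were tested in CD4+ cells and 19 in CD11c+ cells. In CD4+ cells 8 rose and 3 fell after priming and 10 rose and 1 fell after tolerisation, beside 23.3% and 24.2% of all genes and then 20.3% and 29.3%. Irf1, a factor that drives immunosubunit genes, read 9.23 to 9.34 in unimmunised and 9.93 to 10.03 in primed cells (0.71 ± 0.12, adjusted p = 0.00026), whereas Ifng, the cytokine itself, was lower, at 3.86 to 4.94 against 6.16 to 6.34 (-2.03 ± 0.26, adjusted p = 2e-05). In tolerised CD4+ cells Ifng read 5.85 to 6.03, which was not called against unimmunised cells (-0.29, adjusted p = 0.36) and was 1.74 ± 0.26 above primed cells (adjusted p = 0.00064). The natural killer cell marker means given above were also highest on unimmunised and lowest on primed arrays of these 3 groups. Single markers did not all follow that mean. After priming Gzma (-3.98 ± 0.23), Ncr1 (-2.79 ± 0.29) and Klrb1c (-1.06 ± 0.16) were called lower, but Prf1 was called higher (0.29 ± 0.08). The part of these markers in the Ifng difference was not tested. In CD11c+ cells 6 rose and 2 fell after priming and 11 rose and 2 fell after tolerisation, beside 25.5% and 13.2% of all genes and then 31.9% and 16.7%, with Cxcl9 at 3.21 ± 0.21 and Gbp2 at 2.31 ± 0.29. Between tolerised and primed CD11c+ cells 7 rose and 1 fell, beside 1.39% and 1.45% of all genes, with Gbp2 at 1.84 ± 0.29. With abatacept in CD11c+ cells 1 rose and 4 fell, beside 6.43% and 8.86%, with Cxcl9 at -1.01 ± 0.21 and Jak2, a kinase of the receptor, at -0.69 ± 0.13.

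As a description, the genes outside the rule whose level followed the mean of the 5 immunosubunit and PA28 genes most closely were found over the 15 arrays of each cell type, which share treatment groups and, in CD4+ cells, the contrast of the unimmunised arrays with the rest. In CD4+ cells they were H2-T10 (Pearson r = 0.985), Dcaf5 (0.979), Nlrc5 (0.975), Il27ra (0.972), Hivep2 (0.972), Zap70 (0.971), Ptprc (0.970), H2-Q4 (0.970), Dpp4 (0.970) and Sh2d1a (0.970). In CD11c+ cells they were Cox5b (0.979), Eif4e2 (0.978), Plac8 (0.975), Pdk3 (0.974), Ms4a6b (0.974), S100a10 (0.973), S100a6 (0.971), Prelid1 (0.970), Apaf1 (0.969) and Snrpe (0.968). The lists share 0 genes.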

How the data were processed

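RNA of magnetically enriched CD4+ and CD11c+ cells was biotin-labelled and hybridised to arrays, per the labels. For each array the deposited table gives every probe set a log2 value that the authors made with RMA, per the submitters' processing notes, without a version. RMA corrects background, normalizes quantiles across arrays and summarises probes, so shifts shared by all genes are removed. Of 45118 probe sets, 28898 had 1 symbol in the platform annotation, 551 several and 15669 none; those with 1 symbol were used.

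A gene entered a fit if it exceeded the array median on 3 or more of its arrays. Testing used limma 3.58.1 in R 4.3.3 (lmFit, eBayes), over the 15 arrays of a cell type (10322 genes in CD4+, 10203 in CD11c+ cells, 10 residual degrees of freedom) or over all 30 (10838 genes, 20 residual degrees of freedom) between cell types. Tests were two-sided. The number of arrays limits the precision. The procedure was tested on simulated data. Figures were drawn with matplotlib 3.10.9.

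The members and lists were chosen with earlier results of these data known. Named were the 5 immunosubunit and PA28 genes and Psmb5, Psmb6 and Psmb7 always; per comparison, of the called members, the 6 largest rises and falls; members that failed the filter or whose probe sets disagree; and at most 4 called genes of each other list. Psmd14, Psma3 and some others were named after their values were seen. Alternatives were other samples in the fit, no filter, quantile normalization again, array weights, a replicate block, the mean of a gene's probe sets, leaving out each array, and Eif2s3y as a covariate; after seeing the data, the mean of the salivary genes Amy1 and Bpifa2, high on some CD11c+ arrays, as a covariate and a fit without CD4+ unimmunised arrays were added.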

Additional observations from a re-analysis of the deposited data

Results flagged for a closer look

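The members picked by the rule for named genes, with Psma5 added for the comparisons with unimmunised mice, had a change that differed between CD11c+ and CD4+ cells by the interaction test (limma, adjusted p under 0.05), given as the CD11c+ minus the CD4+ log2 difference. They are part of the 23, 34, 4 and 6 members so called in the 4 comparisons, in the order given. For primed against unimmunised mice they were Psmd3 (-0.398), Psmb9 (-0.366) and Psmb8 (-0.269), more negative in CD11c+ cells, and Psmb6 (0.31), Psma5 (0.509), Psmb7 (0.513), Psmd7 (0.556), Psmg2 (0.666), Psmg3 (0.727), Psmd5 (0.819) and Psmc3ip (1.558), more positive. For tolerised against unimmunised mice they were Psmb9 (-0.308), then Psme2 (0.317), Psmb5 (0.403), Psma5 (0.538), Psmb6 (0.628), Psmd13 (0.725), Psmb7 (0.801), Psmd9 (0.831), Psmg3 (0.871), Psmd5 (0.901) and Psmc3ip (2.057). For tolerised against primed mice they were Psmb6 (0.318), Psmb1 (0.392), Psme2 (0.424) and Psmb10 (0.444). For abatacept against control IgG they were Psme2 (-0.384), Psma5 (0.286), Psmb2 (0.302), Psmd4 (0.391), Psmc1 (0.409) and Psmg1 (0.727). The unimmunised CD4+ arrays, with their high levels of other cells' markers, enter the comparisons with unimmunised mice, and their part was not tested.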

How the results depend on the processing

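Of 156 calls of named members, array weights kept 152, a replicate block 154, quantile normalization again 146, no filter 140, the mean of a gene's probe sets 136, only the groups compared 124 and the Eif2s3y covariate 73, and leaving out 1 array kept 937 of 1116. Replicate numbers did not visibly pair the samples, judged by each array's deviations from its group means. Between same-numbered arrays of different groups these deviations correlated at a median of 0 in CD4+ cells (-0.199 to 0.119) and 0.006 in CD11c+ cells (-0.143 to 0.274). Between differently numbered arrays the medians were 0.01 and -0.006. With the replicate block 1 member was called between tolerised and primed CD11c+ cells and 0 between tolerised and primed CD4+ cells.

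With Eif2s3y as a covariate 0 members were called in CD4+ primed and tolerised against unimmunised or each other, CD11c+ primed against unimmunised, CD11c+ abatacept, and the interactions other than primed against unimmunised; 2 were called between cell types with control IgG and 1 in tolerised mice. Eif2s3y hardly varied within CD4+ groups. In CD11c+ cells its levels did not overlap between primed and unimmunised or between control IgG and abatacept arrays. Covariate and group cannot be fully told apart in these comparisons, nor in interactions that use these groups. These counts and the values below are therefore not estimates of a treatment effect. With the covariate the differences turned for CD4+ primed against unimmunised in Psmc3ip (3.318), Psmd7 (3.636), Psmd5 (2.849), Psmg2 (1.888), Psma5 (0.483), Psme1 (-0.363) and Psmb10 (-2.092). For CD4+ tolerised against unimmunised they turned in Psmc3ip (3.175), Psmd7 (3.843), Psmd5 (2.963), Psmd1 (3.532), Psmd9 (3.724), Psmb10 (-2.329), Psme2 (-0.006), Psme1 (-0.197) and Psmb6 (1.484). They also turned for CD11c+ primed against unimmunised in Psme2 (-0.023) and Psme1 (-0.033), and for Psme2 under abatacept in CD11c+ cells (0.016), between cell types with control IgG (-0.257) and in the abatacept interaction (0.086). The mean of probe sets turned the Psmd7 primed interaction (-0.028).

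Between tolerised and primed CD4+ cells 0 members were called with no filter, array weights, only those groups or without the CD4+ unimmunised arrays. With array weights 6 were called between tolerised and primed CD11c+ cells, 8 for CD11c+ abatacept and 12 for the abatacept interaction. With only the groups compared 13 were called for CD4+ abatacept, 11 between cell types in tolerised mice and 1 in the tolerised-primed interaction. With the salivary covariate 12 were called in primed CD11c+ cells and 2 with abatacept. Leaving out 1 array gave 0 to 2 for tolerised against primed in either cell type, 7 to 20 for CD4+ abatacept, 12 to 23 for primed CD11c+ cells, 0 to 4 for CD11c+ abatacept, 7 to 9 between cell types with control IgG, 13 to 24 in tolerised mice, 0 to 8 for the tolerised-primed interaction and 3 to 9 for the abatacept interaction. The cause was not tested.

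The immunosubunit minus constitutive shift with the mean of probe sets was 0.611 for CD4+ primed against unimmunised, 0.093 for CD4+ tolerised against primed, and, between cell types, 0.589 in unimmunised and 0.194 in tolerised mice. Against Psmb5, Psmb6 and Psmb7 alone it was 0.097 for CD4+ tolerised against primed, 0.258 for CD4+ abatacept, 0.11, 0.209 and -0.032 for CD11c+ primed, tolerised and abatacept, and 0.14 and 0.142 between cell types in primed and tolerised mice. Without Psme2 it was 0.282 in tolerised CD11c+ cells and 0.188 between cell types in tolerised mice, where quantile normalization again gave 0.269.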
